A study of Mus musculus with 4 samples.

Results

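The alpha- and beta-globin loci were examined in a list of genomic regions occupied by Wapal in mouse embryonic stem cells (ESCs). The members were 8 genes, found by symbol in GENCODE release M1 on the mm9 assembly. They were the beta-globin genes Hbb-y, Hbb-bh1, Hbb-b1 and Hbb-b2, the alpha-globin genes Hba-x, Hba-a1 and Hba-a2, and Nprl3, the gene next to the alpha genes. All Wapal regions within 200 kb of either cluster were then taken, which gave 6 of the 8497 regions in the list, 5 around the alpha cluster and 1 around the beta cluster. Neither the genes nor the windows were chosen by their Wapal values, although the members were chosen with earlier results of these data known. The chromatin came from 2 clones of ESCs that stably expressed Wapal with a Flag tag and a tag that the ligase BirA biotinylates (FB Wapal), beside the cells' own Wapal. The FB Wapal clones were made in ESCs that already expressed BirA, so both they and the control line carried the ligase, and the 1 control library came from ESCs with BirA and no tagged Wapal. One input library of sheared genomic DNA served as the reference for calling. Chromatin was recovered on streptavidin beads, and the authors deposited 1 list for both clones together and 1 list of 266 regions for BirA alone. The paper counts fewer Wapal sites than this joined list holds, after subtracting BirA regions. The list was used here as deposited, so shares over all regions may include some that the authors removed. The clones cannot be compared with each other, no value has a replicate error, and every statement below describes these lists.

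Wapal is the factor that releases the cohesin ring from chromatin, and much of the cohesin in mammalian cells sits at sites bound by CTCF, a zinc finger protein with a long DNA motif. The globin genes are a textbook case of long-range control. Each cluster holds embryonic and adult genes that are switched in turn in erythroid cells, the beta genes under a locus control region upstream of Hbb-y and the alpha genes under enhancers that lie in and near introns of Nprl3, a gene of the GATOR1 complex that restrains mTORC1. CTCF sites at the edges of both clusters are known from erythroid work. ESCs are not erythroid and do not make haemoglobin, so the lists describe the loci in cells where the globin genes are not in use.

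The beta cluster ran from the end of Hbb-b2 to the start of Hbb-y on the minus strand (chr7:110961038-111001754, 40.72 kb), and no Wapal region lay inside it. A single region was found in its window of 440.7 kb, at chr7:111091120-111091817. The alpha cluster, taken from the end of Nprl3 to the end of Hba-a2 (chr11:32125628-32197301, 71.67 kb), held 1 region inside it, and 4 more lay in its window of 471.7 kb. That is 2.269 regions per Mb in the beta window and 10.6 per Mb in the alpha window, beside 3.321 per Mb over the 2559 Mb of sequenced genome, 3.362 on chromosome 7 and 4.404 on chromosome 11. The BirA list had 0 regions in either window, and the Wapal region of the windows with the closest BirA region was 2495 kb from it.

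The 6 regions are named here by their surroundings. From upstream to downstream of the alpha genes these are the far Il9r region (chr11:32032001-32032683), the near Il9r region (chr11:32082308-32083191), the Rhbdf1 region (chr11:32116566-32117408), the Nprl3 intron region (chr11:32138069-32139081) and the Sh3pxd2b-side region (chr11:32224383-32225216). The region of the beta window is called the Olfr633-side region, after the olfactory receptor gene whose start is nearest. The best match to a CTCF motif in each region is printed here to let the sites be compared by eye, because the regions differed in how well they carried that motif. Each line gives 42 bases of mm9, 5′ to 3′ on the strand of the motif, and the capitals mark the 12 bases of the core.
Olfr633-side region, chr7:111091442-111091483, minus strand: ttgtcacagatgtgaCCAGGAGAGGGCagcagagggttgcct
Far Il9r region, chr11:32032388-32032429, minus strand: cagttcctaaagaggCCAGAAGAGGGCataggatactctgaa
Near Il9r region, chr11:32082683-32082724, plus strand: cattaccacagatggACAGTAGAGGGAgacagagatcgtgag
Rhbdf1 region, chr11:32117017-32117058, plus strand: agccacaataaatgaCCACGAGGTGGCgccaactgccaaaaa
Nprl3 intron region, chr11:32138642-32138683, minus strand: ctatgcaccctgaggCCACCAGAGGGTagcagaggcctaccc
Sh3pxd2b-side region, chr11:32224827-32224868, minus strand: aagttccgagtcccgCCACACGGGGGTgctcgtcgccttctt

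**Figure D1:**
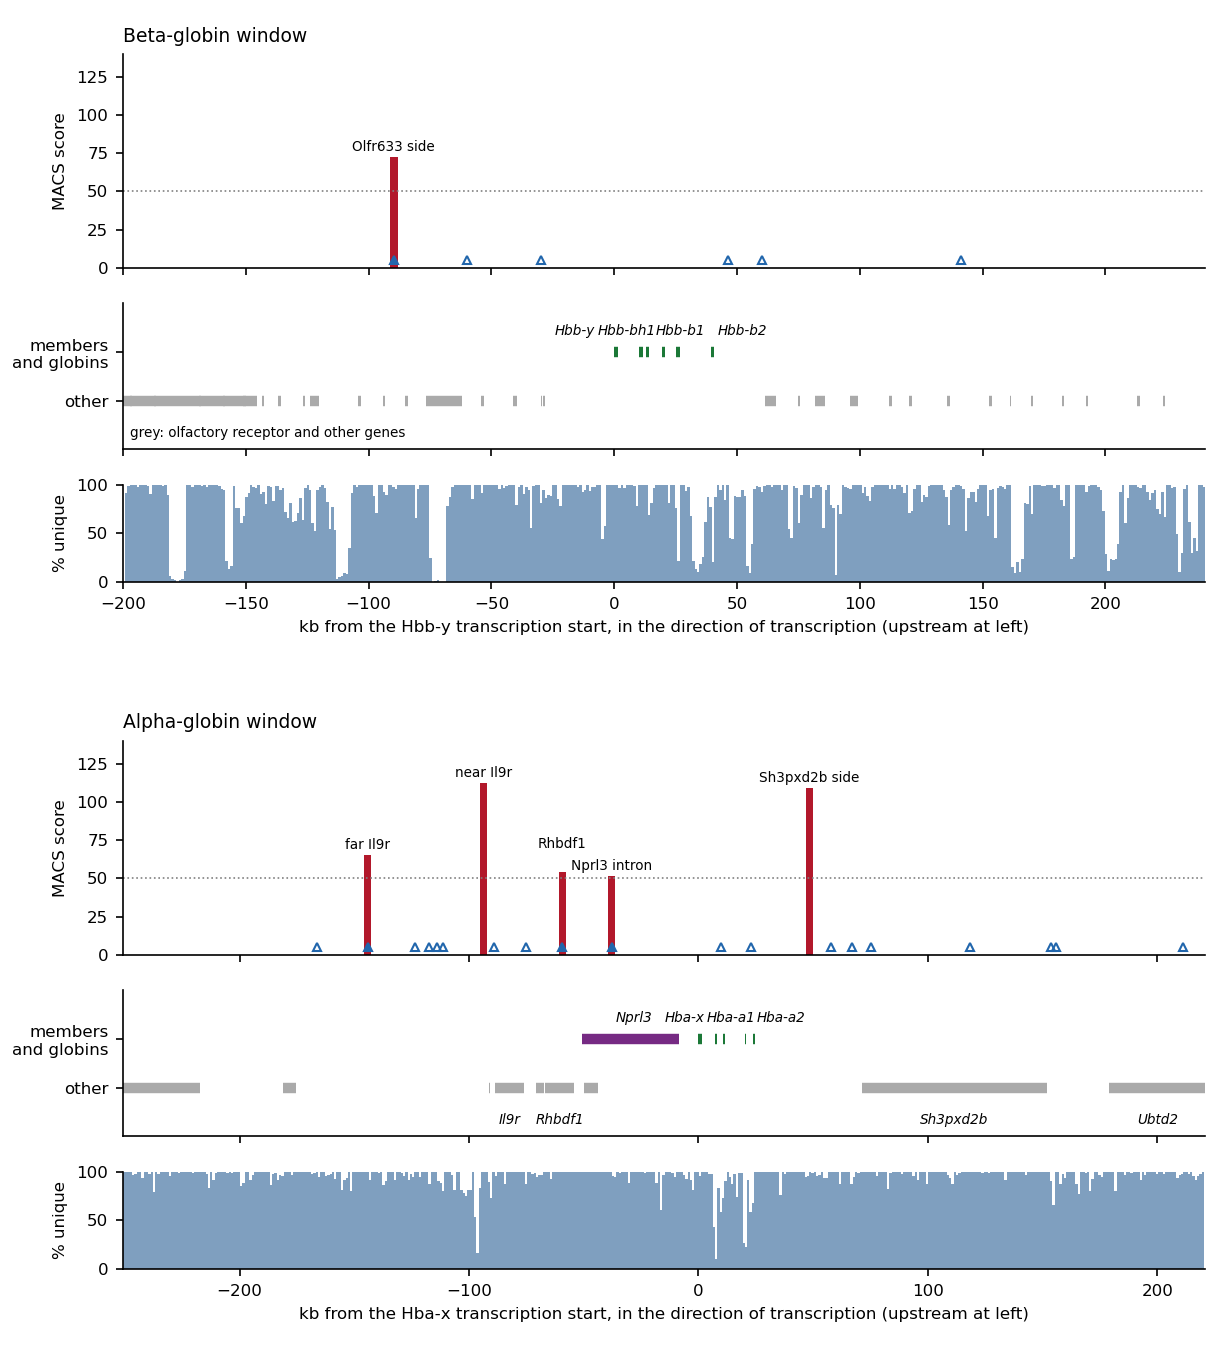
The beta-globin window (upper 3 panels) and the alpha-globin window (lower 3 panels), drawn in the direction of transcription with distance in kb from the start of Hbb-y or Hba-x. Red bars are Wapal regions with their MACS score, the dotted line is the calling threshold of 50, triangles are positions whose CTCF matrix score reached the median of all regions (filled inside a region, open outside), bars below mark genes, and the lowest panels give the percent of 49-base windows per kb that occur once in the genome. The beta window has 1 bar, 89.37 kb upstream of Hbb-y, and the alpha window has 4 bars upstream of Hba-x and 1 downstream of Hba-a2.

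Within the alpha window, the regions bracketed the globin genes without touching them. The Nprl3 intron region was the only one inside the cluster. Its centre lay in intron 8 of the 13-exon transcript of Nprl3 and in an intron of all 9 Nprl3 transcripts that span it, and 1 of those transcripts had an exon that shared 93 bases with the region. Short Nprl3 transcripts also begin near it, the closest 539 bp from its centre and another at 1366 bp. It was 28.63 kb downstream of the annotated start of the gene as a whole and 37.32 kb upstream of Hba-x, the embryonic zeta-like gene, with Mpg, a DNA glycosylase gene, next at 11.56 kb. Coordinates of the alpha enhancers were not used here, so the place of this region relative to them is unknown. Toward the other end, the Sh3pxd2b-side region lay between genes, 27.89 kb downstream of the start of Hba-a2, 24.31 kb from Hbq1a, a theta-like globin gene, and 22.6 kb from the start of Sh3pxd2b, which encodes a podosome scaffold protein. Between these regions ran 85.3 kb with no Wapal region, and this stretch held the starts of Nprl3, Hba-x, Hba-a1, Hbq1b, Hba-a2 and Hbq1a. Among the intervals of the list such a stretch was not unusual in length. The median interval between neighbouring regions was 152 kb, and 33.57% of 8477 intervals were shorter. Counted by genes it was short: of 21850 starts of protein-coding genes that lay between regions, only 7.336% were in a shorter interval.

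On the side of Nprl3 away from the globin genes, beyond its 3′ end, the other regions were strung over the neighbouring genes. The Rhbdf1 region was 8.22 kb from the cluster, in the gene of an inactive rhomboid protease. It fell in intron 1 of 5 Rhbdf1 transcripts and over 752 bases of exon 1 of a shorter sixth transcript, whose start was 330 bp from the centre of the region. The annotated start of the gene as a whole was 4.892 kb away. The near Il9r region lay between genes, 17.09 kb from the start of Il9r, the interleukin 9 receptor gene, and 2.256 kb from the pseudogene Gm12109. The far Il9r region was 67.6 kb from the Il9r start and had no protein-coding gene closer. Neighbouring regions were 49.62, 33.37, 20.66 and 85.3 kb apart, while the next Wapal regions outward were 456.0 kb below the far Il9r region and 308.1 kb above the Sh3pxd2b-side region. The 5 regions therefore stood as a group with longer gaps on both sides.

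At the beta locus the Olfr633-side region was the nearest Wapal region to all of the beta genes. It was 3.265 kb from the start of Olfr633 and 5.224 kb from Olfr632, in the olfactory receptor array in which the beta-globin genes are embedded. No Wapal region lay in the 89.37 kb between it and Hbb-y, the side on which the locus control region is found. On the downstream side the next Wapal region (chr7:110267788-110268360, score 64.62) was 694.1 kb from the start of Hbb-b2. The beta genes thus lay in an interval of 822.8 kb with no Wapal region. Of all intervals 92.73% were shorter, and 79.84% of protein-coding gene starts lay in shorter ones.

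Each region carries a score from MACS, the peak caller the authors used. MACS gives this score as 10 times the −log10 of the p-value against input, and 50 was the weakest value listed. How a score was set where the 2 clones were joined is not given. The median of the list was 81.87. The near Il9r region had a score of 112.69 and the Sh3pxd2b-side region 108.93, above 72.88% and 70.64% of all regions. The Olfr633-side region had a score of 72.74, with 39.58% of regions lower, and the far Il9r region had 65.27, with 29.3% lower. The Rhbdf1 region (54.09) and the Nprl3 intron region (51.37) were close to the threshold, and only 9.015% and 2.719% of regions had lower scores. The regions in and next to Nprl3 were thus among the weakest of the list. Of the others, the near Il9r and Sh3pxd2b-side regions lay above its median, and the far Il9r and Olfr633-side regions below it. Width did not follow the score: the Nprl3 intron region was the widest of the 6 at 1013 bp, wider than 80.76% of regions, and the near Il9r, Rhbdf1, Sh3pxd2b-side, Olfr633-side and far Il9r regions were 884, 843, 834, 698 and 683 bp wide, beside a median of 814 bp for the list.

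**Figure D2:**
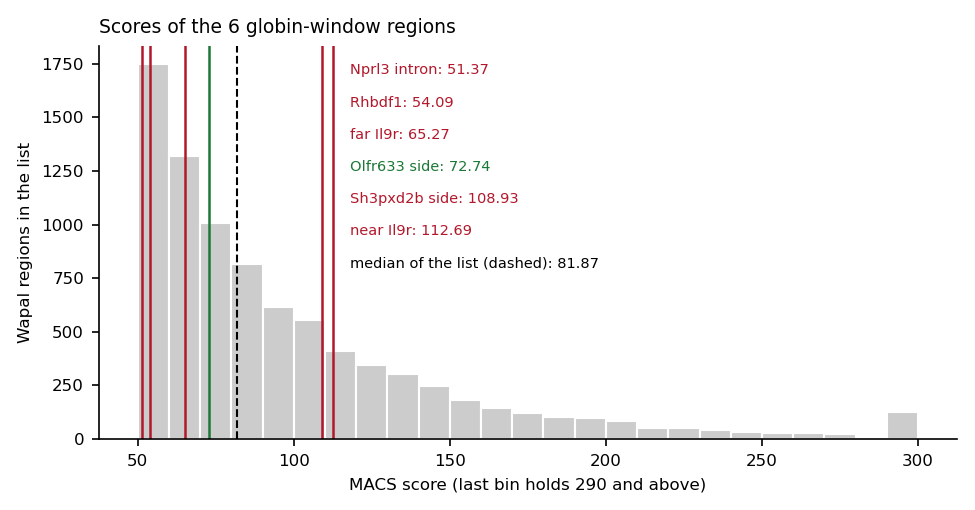
Number of Wapal regions in the whole list by MACS score, in bins of 10 units with scores of 290 and above in the last bin. Lines mark the 5 alpha-window regions (red), the beta-window region (green) and the median of the list (dashed), and 4 of the 6 lines lie below the median of 81.87, with the Nprl3 intron region lowest at 51.37.

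Distances were then taken from each gene's transcription start site (TSS) to the edge of the nearest Wapal region. Hba-a2 (chr11:32196489-32197301, plus strand) had its nearest region at 27.89 kb and Hba-a1 (chr11:32183511-32184465, plus strand) at 40.87 kb, which was the Sh3pxd2b-side region for both of these adult alpha genes. Hba-x (chr11:32176400-32178116, plus strand) was 37.32 kb and Nprl3 (chr11:32125628-32167707, minus strand) 28.63 kb from the Nprl3 intron region. The alpha-side members therefore lay within a range of 27.89 to 40.87 kb, and which of the bracketing regions was closer changed between Hba-x and Hba-a1. Hba-a1 was nearly midway, 44.43 kb from the Nprl3 intron region on its other side. Hba-x was 47.98 kb from the Sh3pxd2b-side region, so both Hba-x and Hba-a1 had 2 regions within 50 kb, and Nprl3 and Hba-a2 had 1 each.

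For the beta genes the order of distance was the order of the genes. Hbb-y (chr7:111000259-111001754) and Hbb-bh1 (chr7:110990150-110991678), the embryonic genes nearest the locus control region, were 89.37 and 99.44 kb from the Olfr633-side region. Hbb-b1 (chr7:110975048-110976610) and Hbb-b2 (chr7:110961038-110962510), the adult genes on the same minus strand, were 114.5 and 128.6 kb from it. All 4 distances are to the same region and are not independent. The pseudogenes Hbb-bh0 and Hbb-bh3 and the gene Hbb-bh2 inside the cluster were between 92.46 and 108.9 kb from it.

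Of the 8 members, 4 had a Wapal region within 50 kb of the TSS, all of them on the alpha side, beside 39.3% of 22367 protein-coding genes. Within 10 kb there was a region for 0 of the 8, beside 9.5% of protein-coding genes, and within 100 kb for 6, beside 60.7%. Only Hbb-b1 and Hbb-b2 had none within 100 kb. With regions of a score of at least 100, Hba-x, Hba-a1 and Hba-a2 had one within 50 kb, always the Sh3pxd2b-side region, beside 15.9% of protein-coding genes, and the beta genes were 749.8 to 789.0 kb from such a region. Having 5 or more regions within 200 kb of the gene, as the alpha cluster had, applied to 9.04% of protein-coding genes, and having 1 or none, as the beta cluster had, applied to 40.6%. Over the 22350 protein-coding genes on chromosomes with a Wapal region, the median distance was 70.98 kb.

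The neighbours of the beta genes were mostly olfactory receptor genes, which made up 23 of the 28 protein-coding genes in the beta window and 0 of 13 in the alpha window. Across the genome, 15.5% of 1113 olfactory receptor genes had a Wapal region within 50 kb, their median distance was 202.8 kb, and 50.58% had no region within 200 kb, beside 17.9% of all protein-coding genes. The distances of the beta genes, 89.37 to 128.6 kb, were above the median of all protein-coding genes and below that of the olfactory receptor genes. The beta window was also poorer in G and C, at 38.31% beside 46.65% in the alpha window and 41.76% in the genome. Base composition, the receptor array and the density of CTCF motif positions, given below, moved together with the difference between the loci. Their part in it was not tested.

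A list of 13 genes that control or serve erythroid cells was compared with the members. Within 50 kb of the TSS, 9 of the 13 had a Wapal region, beside the 39.3% given above. Sox6, a repressor of embryonic globin genes, had one 1.212 kb upstream with a score of 51.69, near the threshold, and Zfpm1, the GATA1 cofactor FOG1, had one 8.244 kb upstream with a score of 179.53. Bcl11a, a repressor of embryonic and fetal globin genes, had one 24.48 kb upstream (81.24). Tal1 (28.88 kb) and Ldb1 (30.01 kb), which form a complex that loops the locus control region to its genes, had regions downstream with scores of 51.92 and 70.16. Gfi1b, a repressor in erythroid cells, had its nearest region at 36.2 kb, with a score of 372.07, the highest among the nearest regions of the 13 genes. Gata1 (38.9 kb), Lmo2 (42.88 kb) and Nfe2 (48.48 kb), erythroid transcription regulators, completed the 9. Those without one within 50 kb were Klf1 (88.05 kb), the activator of adult beta-globin, the erythropoietin receptor gene Epor (91.65 kb), Myb (126.7 kb) and the haem synthesis gene Alas2 (409.0 kb). The list was small and drawn up by hand with earlier results of these data known, so its share describes these genes only.

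**Figure D3:**
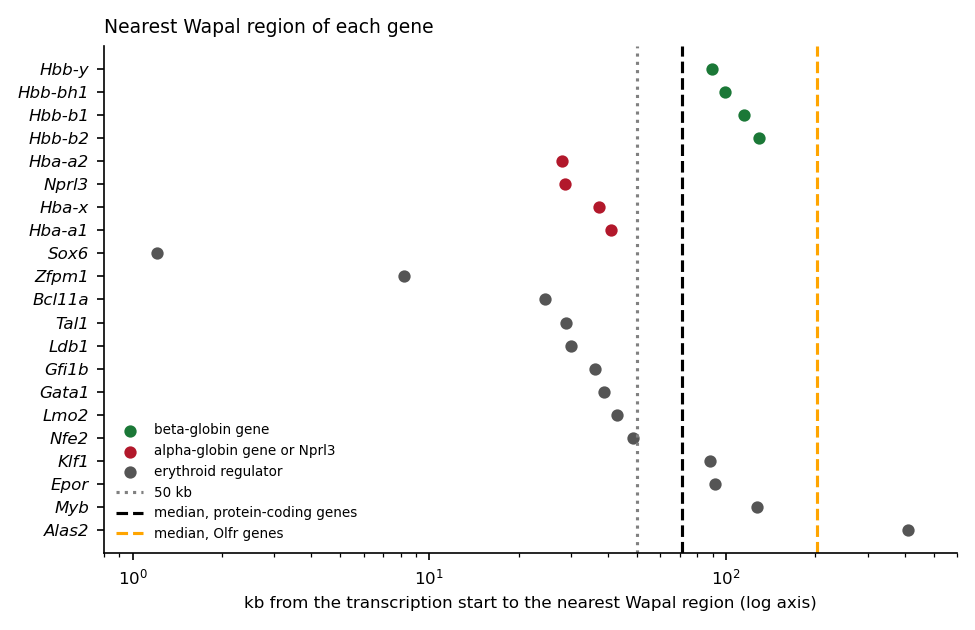
Distance in kb, on a log axis, from the TSS of each member and each of 13 erythroid genes to the nearest Wapal region, with lines at 50 kb and at the medians of protein-coding genes (70.98 kb) and olfactory receptor (Olfr) genes (202.8 kb). The alpha-side members (red) sit between 27.89 and 40.87 kb and the beta genes (green) between 89.37 and 128.6 kb.

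The CTCF core motif was searched on both strands of every region, with at most 1 mismatch to its 12 positions. It was present in 4 of the 6 regions, namely the Olfr633-side, far Il9r, Rhbdf1 and Nprl3 intron regions, beside 73.8% of all 8497 regions and 10.2% of flanking stretches of the same width. None of the 6 had a core with no mismatch, which 27.89% of all regions had. In the near Il9r region the best core had 2 mismatches, and 96.13% of regions had a core at least that good. In the Sh3pxd2b-side region the best one had 3. The regions with the highest scores of the 6 were therefore those without a core of at most 1 mismatch, although over the whole list such a core was present in 77.27% of regions with a score of at least 100 and in 70.01% of those with a score under 60. With 6 regions this is a description of these sites, and of their sequence only. The paper reports from ChIP-seq that nearly all Wapal sites overlapped CTCF sites. Whether CTCF was bound at these 6 regions was not examined here.

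To use the bases around the core as well, a matrix of 42 bases was made from 6267 motifs in regions outside the globin windows. These motifs had cores with at most 1 mismatch. The best matrix score of each region was taken, in bits. The median of this score was 20.59 over all regions and 2.681 over the flanking stretches. The Nprl3 intron region had 28.4 bits, above 94.39% of regions, although its MACS score was the lowest of the 6. The far Il9r region had 25.87 bits, the Olfr633-side region 23.73 and the Rhbdf1 region 21.26, all above the median. The near Il9r region had 18.86 bits, and the Sh3pxd2b-side region had 12.44, below all but 10.19% of regions and reached by 10.48% of flanking stretches. The best match lay within 87 bp of the centre in each of the 6 regions. In the Olfr633-side region it was 6 bp from the centre, and a second core with 2 mismatches began 10 bases away on the same strand.

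**Figure D4:**
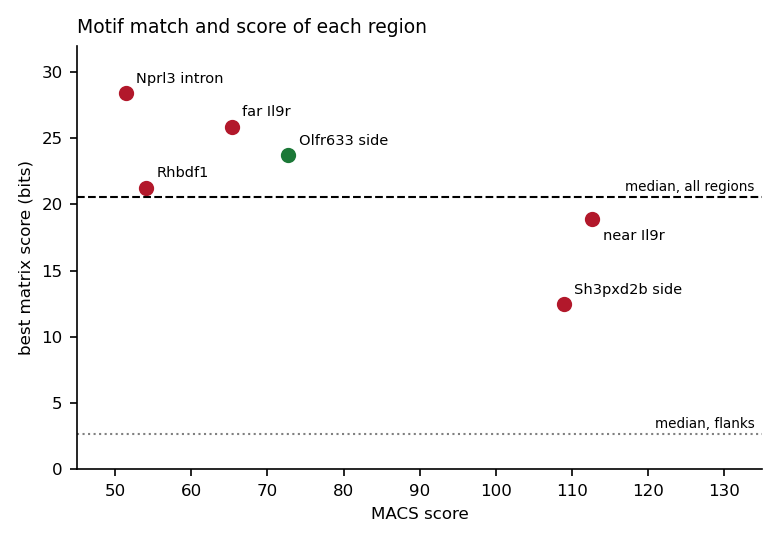
Best CTCF matrix score in bits of each of the 6 regions against its MACS score, with the medians of all regions (20.59, dashed) and of flanking stretches (2.681, dotted). The Nprl3 intron region is highest on the matrix axis and lowest on the score axis, and the 2 regions above a MACS score of 100 lie below the dashed line.

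The middle 200 bases of 3 regions are printed on the plus strand of mm9 to show how they differ, the Nprl3 intron region with the best motif and both regions of high score with poorer ones. Capitals mark the best match to the core, which reads in the reverse direction in the first and the last of them.
Nprl3 intron region, chr11:32138476-32138675: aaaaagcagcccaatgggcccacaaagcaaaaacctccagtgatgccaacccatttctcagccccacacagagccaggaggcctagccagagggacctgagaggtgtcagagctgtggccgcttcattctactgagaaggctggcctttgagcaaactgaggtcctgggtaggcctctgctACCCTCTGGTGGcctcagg
Near Il9r region, chr11:32082650-32082849: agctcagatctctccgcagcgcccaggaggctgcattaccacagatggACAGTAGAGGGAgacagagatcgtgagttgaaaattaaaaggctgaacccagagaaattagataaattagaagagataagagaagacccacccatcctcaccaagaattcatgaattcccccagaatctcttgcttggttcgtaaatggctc
Sh3pxd2b-side region, chr11:32224700-32224899: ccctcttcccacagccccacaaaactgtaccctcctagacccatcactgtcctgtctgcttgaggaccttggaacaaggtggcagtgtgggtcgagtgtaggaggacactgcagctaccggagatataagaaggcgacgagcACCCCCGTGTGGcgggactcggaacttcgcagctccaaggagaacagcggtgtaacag
These stretches hold 1, 4 and 9 CpG dinucleotides. Over the whole regions the numbers were 8 in the Nprl3 intron region, 18 in the near Il9r region and 22 in the Sh3pxd2b-side region, and 4, 4 and 12 in the Olfr633-side, far Il9r and Rhbdf1 regions. The regions with the poorer motifs were thus those with the most CpG dinucleotides, although the Nprl3 intron region was the richest in G and C at 52.71%, higher than 94.48% of all regions. The others ranged from 43.41% in the Olfr633-side region to 49.47% in the Rhbdf1 region.

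A high matrix score did not by itself come with a Wapal region. In the genome, 7.713% of the 57242 positions with a matrix score of at least the median of the regions lay in a region, and in the windows 1 of 6 did at the beta locus and 3 of 19 at the alpha locus. Such positions numbered 13.61 per Mb in the beta window, 40.28 in the alpha window and 22.37 in the genome. The positions at the beta locus are printed because they mark both sides of the cluster, in the same form as above and in the direction of transcription of the globin genes.
59.92 kb beyond Hbb-y, chr7:111061679-111061720, minus strand: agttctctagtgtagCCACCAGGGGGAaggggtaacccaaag
29.99 kb beyond Hbb-y, chr7:111031740-111031781, plus strand: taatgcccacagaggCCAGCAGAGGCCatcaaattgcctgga
5.424 kb beyond Hbb-b2, chr7:110955573-110955614, minus strand: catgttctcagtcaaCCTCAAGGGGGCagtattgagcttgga
19.4 kb beyond Hbb-b2, chr7:110941593-110941634, plus strand: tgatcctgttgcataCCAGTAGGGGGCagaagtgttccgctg
100.3 kb beyond Hbb-b2, chr7:110860686-110860727, plus strand: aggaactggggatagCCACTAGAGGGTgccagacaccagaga
Their matrix scores, from 21.02 to 22.63 bits, were close to one another and below the 23.73 bits of the Olfr633-side region. The site 19.4 kb beyond Hbb-b2 was 1.249 kb from the start of Olfr67 and held the only core in the beta window with no mismatch. None of these 5 sites was in a Wapal region, and the 400 bases around each consisted wholly of 49-base windows that occur once in the genome. At the alpha locus the positions outside regions reached 30.08 bits, 115.5 kb below the cluster, and 29.22 bits, 3.837 kb from the start of Sh3pxd2b. Both were above the 28.4 bits of the Nprl3 intron region. They carried the same core word as the far Il9r region, a word that occurs 50332 times in mm9, 631 of them in Wapal regions. The alpha window alone held 23 copies of this word. Copies in regions could enter the matrix, so high scores at this word may partly reflect how the matrix was built. They do not show a better CTCF site than that of the Nprl3 intron region. The core of the Rhbdf1 region occurs 207 times, 33 of them in regions.

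Over the genome, 3.361% of 215438 cores with at most 1 mismatch lay in a Wapal region, so most such cores had none. Inside the gene clusters themselves, the beta cluster held 2 such cores and the alpha cluster 8. Of these, that of the Nprl3 intron region lay in a Wapal region. One of the others was 0.564 kb from the start of Hba-x, and another was 0.02 kb from the start of Hbq1b. The same core as at Hbq1b lay 0.019 kb from the start of Hbq1a, outside the cluster and in no Wapal region. In the 1 kb upstream of Hbq1b and Hbq1a, 56.72% and 58.09% of 49-base windows occur once. A position of 22.19 bits lay 0.892 kb from the start of Hbq1b, next to Hba-a1, and one of the same score lay 0.973 kb from the start of Hbq1a, 1.754 kb beyond the end of the cluster at Hba-a2. In the 400 bases around these, only 31.25% and 31.53% of 49-base windows occur once in the genome, so most reads of that length from there had more than 1 place.

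That point bears on the adult genes of both loci. The authors kept reads that aligned to 1 place, and in mm9 the adult genes exist in near-identical pairs. The identities and copies given here are those of the mm9 sequence to which the reads were aligned. The sequence of the strain from which the ESCs came was not examined. The coding sequences of Hba-a1 and Hba-a2 differed at 1 of 429 bases (99.77% identity), and those of Hbb-b1 and Hbb-b2 at 1 of 444 (99.77%), while Hbb-bh1 and Hbb-y were 77.04% identical. Of the 49-base windows in Hba-a1, 5.402% occur once in mm9, and 0 of 907 when copies with up to 2 mismatches also count. For Hba-a2 these values were 6.405% and 0 of 765. In Hbb-b1 they were 32.67% and 24.22%, and in Hbb-b2 28.42% and 19.44%. The embryonic genes were mostly unique, with 100% of windows in Hbb-y and Hbb-bh1 and 97.42% in Hba-x without an exact copy, and Nprl3 had 98.03%.

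Upstream of the genes the pairs differed. In the 1 kb upstream of Hbb-b1 and Hbb-b2, 100% and 95.48% of windows occur once, so by the mm9 sequence reads from these promoters could be placed. In the 1 kb upstream of Hba-a1 and Hba-a2 it was 57.88% and 40.97%, or 35.19% and 18.28% with up to 2 mismatches. The GENCODE starts of these 2 genes are not at matching bases. The start in the RefSeq promoter of Hba-a1 lay 161 bp inside GENCODE's Hba-a1 and 0 bp from the start of GENCODE's Hba-a2. The 2 stretches thus covered different parts of the copied sequence, and their shares cannot be compared directly. An example is the read-length stretch just before the annotated start of Hba-a1 (chr11:32183462-32183510), shown because it occurs a second time at chr11:32196279-32196327, 162 bases before the start of Hba-a2, so a read from it has 2 places and was not kept.
Upstream of Hba-a1 and Hba-a2, plus strand: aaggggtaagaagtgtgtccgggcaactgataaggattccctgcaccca
The promoter sequences of RefSeq, whose tables are on GRCm38, repeated this: those of Hba-a1 and Hba-a2 each matched mm9 at both genes. In RefSeq the adult beta genes carry the names Hbb-bs and Hbb-bt, and the promoters under these names matched mm9 at GENCODE's Hbb-b1 and Hbb-b2.

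**Figure D5:**
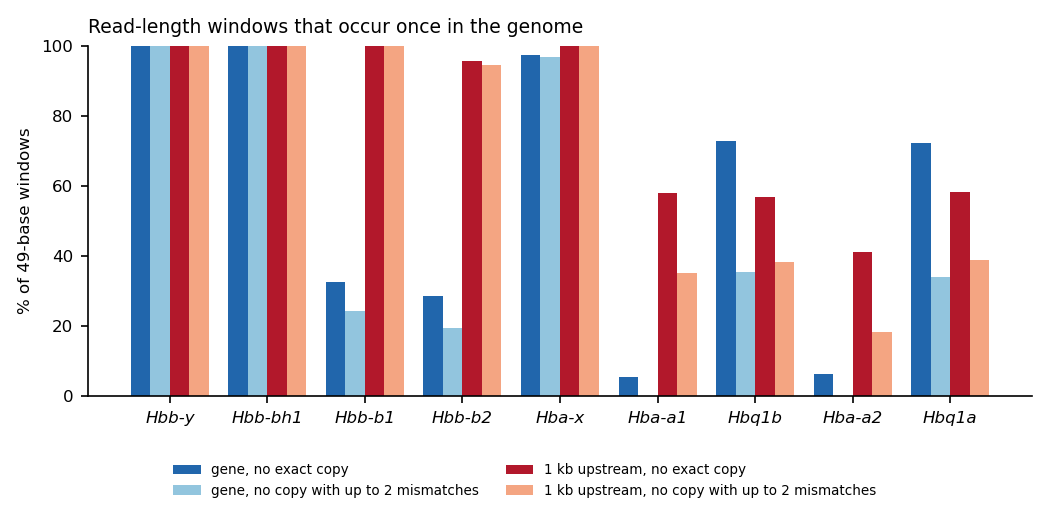
Percent of 49-base windows that occur once in mm9, for each globin gene (blue) and the 1 kb upstream of it (red), counting exact copies (dark) or copies with up to 2 mismatches (light). Hba-a1 and Hba-a2 have 5.402% and 6.405% in the gene and 0 with mismatches allowed, Hbb-b1 and Hbb-b2 have 32.67% and 28.42%, and Hbb-y, Hbb-bh1 and Hba-x are nearly complete.

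No Wapal region was listed over Hba-a1, Hba-a2, Hbb-b1 or Hbb-b2, or in the 1 kb upstream of them. Going by the mm9 sequence, nearly no read over the bodies of Hba-a1 and Hba-a2 could have been kept, so Wapal was in effect not measured there. By the same sequence, only part of the reads over Hbb-b1 and Hbb-b2, and upstream of Hba-a1 and Hba-a2, could be placed. How far the sequence of the ESCs differs from mm9 at these genes is unknown here. Parts of the space between genes were also repeated: in the beta cluster, 5 neighbouring bins of 1 kb between Hbb-b2 and Hbb-b1 had 10.2% to 25.7% of windows that occur once. Between Hbb-y and the Olfr633-side region, 87.81% of windows occurred once on average over 89 bins of 1 kb, with 8 bins under 50%. Between the Nprl3 intron region and the Sh3pxd2b-side region the mean was 91.91% over 84 bins, with 4 under 50%. In the 6 Wapal regions it was 98.11% to 100%. The list holds no read counts, so how far below the threshold the stretches without regions were is unknown.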

How the data were processed

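Biotin-mediated ChIP-seq was performed by the authors on 2 FB Wapal clones and 1 line expressing BirA alone, with 1 input library. They aligned reads to mm9 with Bowtie, allowing 2 seed mismatches and keeping reads with 1 placement, called regions against input with MACS 1.4.2 (p of 1e-05), annotated them with CisGenome, and deposited 1 list for both clones and 1 for BirA, with the MACS score of each region. The rule that joined the clones is not given in the sources used here. The score is not normalized between lists. A read length of 49 bases was taken from the methods for a related run that was matched to these libraries.

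From the lists, distances to GENCODE M1 genes on mm9 were measured from region edges to the TSS, with coordinates counted from 1. The CTCF core motif (its consensus is named only) was searched on both strands with at most 1 mismatch, beside stretches of the same width 5 kb away. Copies of read-length windows were counted over both strands of mm9. The members, the erythroid list and the search for repeated windows were chosen with earlier results of these data known. All regions within 200 kb were named, with the member genes, other globin genes and the genes nearest each region. The matrix, and copies with up to 2 mismatches, were added after seeing the data. No test was made, since 1 joined list has no replicates, and the lists hold no counts, so precision is unknown. The functions found 200 of 200 planted motifs and 50 of 50 planted copies in simulated sequence. Python 3.11.15, numpy 2.4.6, pandas 2.3.3, numba 0.67.0, biopython 1.88 and matplotlib 3.10.9 were used.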

Additional observations from a re-analysis of the deposited data

How the results depend on the processing

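Of 22 alternatives, 16 kept their value within 1.5 times, and the other 6 follow. With a score of at least 100 the windows held 2 regions, both alpha, the median distance of the members was 403.2 kb in place of 65.12 kb, and 5 erythroid genes had a region within 50 kb. A limit of 10 kb left 0 members and 2 erythroid genes, and no core without a mismatch was found (0 of 6 regions). A window of 500 kb gave 9 regions in place of 6, with 2 in place of 1 at the beta locus. A window of 100 kb, distances to region centres or gene bodies, removal of BirA regions, merging and other read lengths changed little: for 36 and 75 bases, 85.73% and 90.79% of windows in both clusters occurred once, beside 87.95%. The matrix, added after seeing the data, also placed 4 regions at or above the median. It was built from cores with at most 1 mismatch in regions of the same list, so it was not independent of the core search.

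No paired analysis was possible because both clones were deposited as 1 joined list, so no clone was left out. Counts of 6 regions and 8 genes carry no error, depth at single positions is unknown, and a missing region means only that none reached the calling threshold.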
